A study of Mus musculus with 6 samples.

Results

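Collagen prolyl and lysyl hydroxylases were examined as 10 genes picked by name, a choice made with earlier results of these data known. They are P4ha1, P4ha2 and P4ha3, P3h1, P3h2 and P3h3, Plod1, Plod2 and Plod3, and Crtap, the partner protein of P3h1. Each matched 1 row by symbol among the 54532 gene rows of the deposited expression table. The table comes from mouse tissue labelled lung and holds 6 RNA sequencing libraries, 3 labelled aged, from mice of 18 months, and 3 labelled young, from mice of 3 months. The labels name no strain, sex, genotype or treatment for either group, and do not state how many mice stand behind the 3 libraries of each age and whether tissue was pooled. The p-values below therefore set the difference between groups against the variation among these libraries only, and that variation may be technical.

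Collagen chains are hydroxylated in the endoplasmic reticulum before they fold into a triple helix. Prolyl 4-hydroxylase is built from catalytic alpha subunits, encoded by the P4ha genes, and the beta subunit protein disulfide isomerase, encoded by P4hb, and its product 4-hydroxyproline stabilises the helix. Lysyl hydroxylases, encoded by the Plod genes, make the hydroxylysine that carries sugars and enters crosslinks between collagen molecules, and prolyl 3-hydroxylase 1 works in a complex with Crtap and cyclophilin B, encoded by Ppib. The P4ha, P3h and Plod enzymes use oxygen, 2-oxoglutarate, iron and ascorbate, whereas Crtap has no hydroxylase activity of its own. In lung, fibroblasts are a main source of fibrillar collagen and of these enzymes.

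The contents of the libraries went against the tissue label for most, but not all, of the lung markers examined. Of 20 markers of alveolar type 2, club and ciliated, endothelial, leukocyte and erythroid cells, 17 were below 1 FPKM (fragments scaled by gene length and by the size of the library) in every library. The exceptions were Abca3, Tppp3 and the macrophage gene Cd68, which rose and averaged 16.1 ± 0.601 FPKM in libraries labelled aged and 6.98 ± 0.989 FPKM in libraries labelled young (SD, n = 3 each). The 5 alveolar type 1 markers were all tested and summed to 178 to 196 FPKM in libraries labelled aged and 104 to 110 FPKM in libraries labelled young, with Pdpn and Aqp5 at 10 FPKM or more everywhere and called higher, Hopx called lower, and Ager below 1 FPKM. The part of Cd68 and of these markers in the results was not tested. The surfactant gene Sftpc was at most 0.112 FPKM, and Scgb3a2 was at 0 throughout. Of 8 fibroblast and mesenchymal markers, 6 were at 10 FPKM or more in every library, while Dcn and Thy1 were below 1 FPKM, and all 4 proliferation markers were at 10 FPKM or more. The 8 fibroblast and mesenchymal markers summed to 924 to 961 FPKM in the libraries labelled aged and 1168 to 1197 FPKM in those labelled young. Col1a1, Col1a2 and Col3a1 carried that difference: the other 5 markers summed to 529 to 536 FPKM in libraries labelled aged and 517 to 546 FPKM in libraries labelled young, with Pdgfra called lower, Pdgfrb called higher and Vim not past the threshold. The 4 kidney markers summed to 0.341 to 0.656 FPKM in the libraries labelled aged and 0.349 to 126 FPKM in those labelled young, as Kap, a kidney androgen-regulated gene, was at 116 and 21.9 FPKM in young replicates 1 and 3 and at 0 in the other 4 libraries. The groups are therefore called libraries labelled aged and labelled young. Libraries labelled aged held 16649061 to 16906850 recovered reads, and libraries labelled young held 17266815 to 17456715.

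To show the sequences in front of the genes, the 250 bases upstream of the RefSeq start are printed for P4ha1 and Plod1, which had the 2 largest falls among the hydroxylases, and for Crtap, whose fall was the smallest among those called. They are on build GRCm38.p6, 5′ to 3′ on the strand of the gene: chr10:59323046-59323295 (plus strand) for P4ha1, chr4:147936777-147937026 (minus strand) for Plod1 and chr9:114390713-114390962 (minus strand) for Crtap. Capitals mark the words ACGTG and GCGTG, the core letters of the hypoxia response element, read on both strands, so that CACGT and CACGC are also in capitals.
P4ha1: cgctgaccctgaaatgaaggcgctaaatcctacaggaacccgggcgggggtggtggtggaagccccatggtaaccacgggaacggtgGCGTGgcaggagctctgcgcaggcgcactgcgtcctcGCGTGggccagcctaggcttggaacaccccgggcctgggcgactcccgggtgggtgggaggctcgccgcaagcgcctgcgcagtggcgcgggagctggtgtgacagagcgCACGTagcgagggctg
Plod1: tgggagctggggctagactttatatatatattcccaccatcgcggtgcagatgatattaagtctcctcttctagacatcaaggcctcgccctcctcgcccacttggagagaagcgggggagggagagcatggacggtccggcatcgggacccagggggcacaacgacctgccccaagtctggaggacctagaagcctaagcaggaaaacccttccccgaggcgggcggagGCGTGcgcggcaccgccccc
Crtap: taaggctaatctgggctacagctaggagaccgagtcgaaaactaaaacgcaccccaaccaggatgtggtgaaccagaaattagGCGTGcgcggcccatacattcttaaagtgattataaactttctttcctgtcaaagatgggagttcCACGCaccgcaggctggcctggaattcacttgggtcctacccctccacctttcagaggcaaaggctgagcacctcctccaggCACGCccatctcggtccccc
RefSeq promoters were found for 8 of the 10 genes, and Plod2 and P3h2 have no entry in the table used. The P4ha1 window held 3 of the words, P4ha2 3, Plod1 1, Plod3 4 and Crtap 3, both P3h1 windows held 2, and the P4ha3 and P3h3 windows held 0. The Plod3 window lies within Znhit1 on the opposite strand, so its words also stand in that gene, and the P4ha2 window and the second P3h1 window lie inside the deposited spans of their own genes. ACGTG and CACGT overlap where the letters CACGTG stand, which occurred in 0 of these windows. The words were present in 6 of the 8 genes, a count by gene. By window, 38.6% of all 32851 promoter windows of the same length held them, as did 54.7% of the 12501 windows of genes tested here. The units differ, as P3h1 has 2 windows, and P4ha3, among the 8 genes, was not tested. The letters G and C made up 53.6 to 70% of the windows of the 8 genes, against a median of 52.4% for promoter windows. Whether this bears on the number of words was not tested. A match of these letters is a description of sequence and not a binding site.

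Of the 10 genes, 8 had at least 0.5 FPKM in at least 3 libraries and were tested, while P4ha3 and P3h2 did not reach that level. Of the 8, 6 fell in the libraries labelled aged (P4ha1, P4ha2, Plod1, Plod2, P3h1 and Crtap), 0 rose and 2 were not past the threshold (P3h3 and Plod3), by limma on log2(FPKM + 1) with Benjamini-Hochberg adjustment over all genes tested and a threshold of 0.05. The background was high: 32.3% of the 15197 tested genes were called lower, 27.7% were called higher and 60% were called in either direction. The groups did not overlap for 7 of the 8, against 66.9% of all tested genes. The median log2 difference of the 8 was -0.70, against -0.03 over all genes tested. Fewer cells of a type and less RNA per cell cannot be told apart in bulk libraries.

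**Figure D1:**
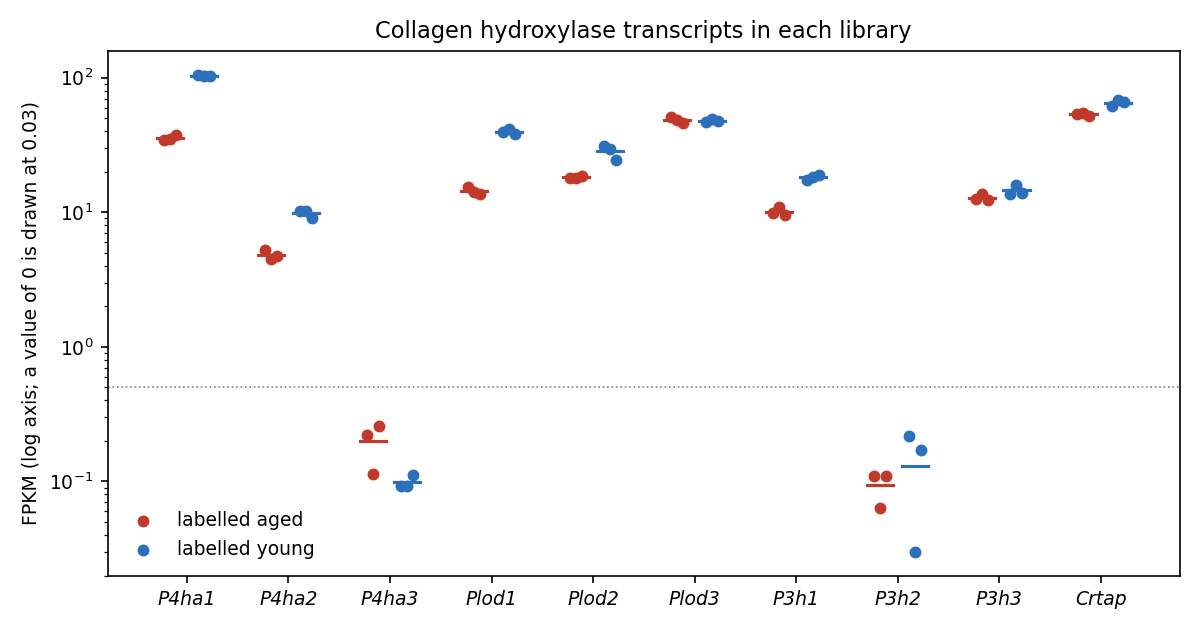
FPKM of each of the 10 genes in each library on a log axis, libraries labelled aged left of those labelled young, with the dotted line at 0.5 FPKM, the level needed for testing. P4ha1 sat at 34.4 to 37.8 FPKM in the libraries labelled aged and at 102 to 106 FPKM in those labelled young, while Plod3 overlapped between the groups.

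Among the catalytic subunits of prolyl 4-hydroxylase, P4ha1 (chromosome 10, 59323296 to 59373304, mm10) had 34.4, 35.2 and 37.8 FPKM in the libraries labelled aged, against 106, 102 and 103 FPKM in those labelled young. Every library labelled young was above every library labelled aged. The mean was 35.8 ± 1.81 FPKM in libraries labelled aged and 103 ± 1.80 FPKM in libraries labelled young (SD, n = 3 each), 2.89-fold lower. The log2 difference was -1.51 ± 0.04 (SE), with an adjusted p of 2.30e-06 in limma.

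P4ha2 (chromosome 11, 54100095 to 54131665), the second alpha subunit, had 5.26, 4.53 and 4.75 FPKM in the libraries labelled aged and 10.3, 10.3 and 9.04 FPKM in those labelled young. It was 2.04-fold lower in the libraries labelled aged, averaging 4.84 ± 0.375 FPKM there and 9.86 ± 0.706 FPKM in libraries labelled young (SD, n = 3 each). On the log2 scale the difference was -0.89 ± 0.07 (SE), with an adjusted p of 6.47e-05 in limma. P4ha2 was the less abundant of the pair in every library.

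P4ha3 (chromosome 7, 100285520 to 100319699), the third alpha subunit, was near the limit of detection. It had 0.223, 0.113 and 0.260 FPKM in the libraries labelled aged and 0.0926, 0.0919 and 0.111 FPKM in those labelled young. These values rest on 32 recovered reads in libraries labelled aged and 16 in libraries labelled young. Their ratio was 2.02, with an exact 95% interval of 1.08 to 3.94 that covers counting error only. A count of 3 reads on this gene corresponds to 0.0551 to 0.0564 FPKM. Without the filter on low values the adjusted p of P4ha3 in limma was 0.159, which missed the threshold.

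Within a library, P4ha2 relative to P4ha1 was 0.136 ± 0.0151 in libraries labelled aged and 0.0953 ± 0.00643 in those labelled young (SD, n = 3 each), 1.42-fold higher. The 2 sets of ratios did not overlap, but an exact permutation test of 3 against 3 libraries can give no p below 0.1, which was the p here (2-sided; 0.117 adjusted over the 14 ratios computed). P4ha1 made up 87.6 ± 1.21% of the summed FPKM of the 3 genes in libraries labelled aged and 91.2 ± 0.528% in libraries labelled young. The sum itself averaged 40.8 ± 1.72 FPKM in libraries labelled aged and 113 ± 2.16 FPKM in libraries labelled young.

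Of the lysyl hydroxylases, Plod1 (chromosome 4, 147909753 to 147936767), which acts on lysines of the collagen helix, had 15.3, 14.1 and 13.6 FPKM in the libraries labelled aged, against 39.6, 41.5 and 38.2 FPKM in those labelled young. The groups stood far apart, and Plod1 was 2.78-fold lower, with means of 14.3 ± 0.860 FPKM in libraries labelled aged and 39.8 ± 1.66 FPKM in libraries labelled young (SD, n = 3 each). This is a log2 difference of -1.41 ± 0.05 (SE), with an adjusted p of 4.96e-06 in limma.

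Plod2 (chromosome 9, 92542223 to 92608428), the enzyme known for hydroxylating telopeptide lysines, had 17.9, 18.1 and 18.6 FPKM in the libraries labelled aged, against 31.2, 29.5 and 24.3 FPKM in those labelled young. The young libraries were spread more widely than the aged ones, and replicate 3 was the lowest of them. The mean was 18.2 ± 0.411 FPKM in libraries labelled aged and 28.3 ± 3.56 FPKM in libraries labelled young (SD, n = 3 each), 1.56-fold lower, with a log2 difference of -0.60 ± 0.09 (SE) and an adjusted p of 0.000969 in limma.

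Plod3 (chromosome 5, 136987019 to 136996648), which also transfers sugars to hydroxylysine, had 50.9, 48.7 and 45.9 FPKM in the libraries labelled aged and 47.0, 49.6 and 47.5 FPKM in those labelled young. The groups overlapped. The log2 difference was 0.01, with a 95% confidence interval of -0.10 to 0.12 and an adjusted p of 0.825 in limma. Plod3 overlaps Znhit1 on the opposite strand over 1003 bases, and whether counting used strand was not given in the sources used here, so its reads and those of Znhit1 cannot be told apart there. Znhit1 was at 16.5 to 17.9 FPKM in the libraries labelled aged and at 17.2 to 19.3 FPKM in those labelled young.

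In the make-up of the lysyl hydroxylase transcripts, the shares of Plod1 and Plod3 did not overlap between groups. Plod3 made up 59.8 ± 0.9997% of the summed FPKM of the 3 genes in libraries labelled aged and 41.4 ± 1.63% in libraries labelled young, and Plod1 made up 17.7 ± 0.449% in libraries labelled aged and 34.3 ± 0.588% in libraries labelled young (SD, n = 3 each). Plod2 held 22.5 ± 1.31% in libraries labelled aged and 24.3 ± 2.18% in libraries labelled young, with overlapping values. Plod3 relative to Plod1 was 3.39 ± 0.0697 in libraries labelled aged and 1.21 ± 0.0291 in libraries labelled young, and Plod2 relative to Plod1 was 1.27 ± 0.101 in libraries labelled aged and 0.711 ± 0.0758 in libraries labelled young. Neither set of ratios overlapped between groups, and each had the smallest p that the exact permutation test allows, 0.1 (0.117 adjusted).

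**Figure D2:**
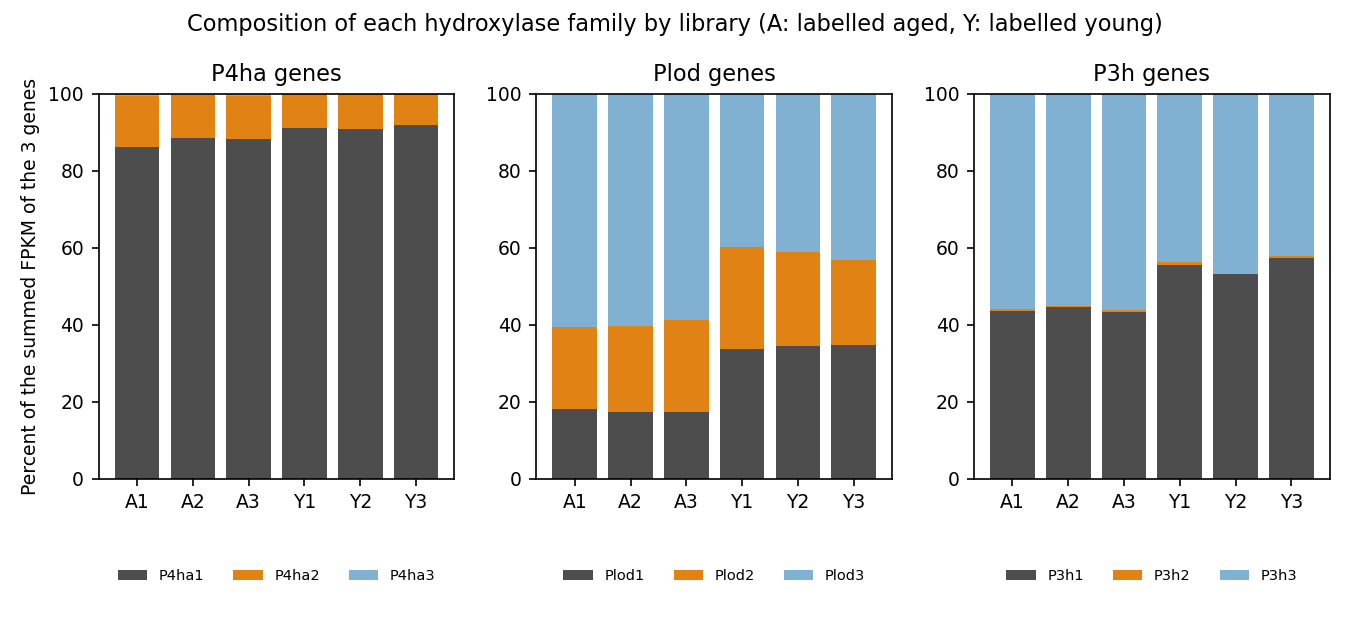
Percent of the summed FPKM of each family held by each gene, per library, with libraries labelled aged (A) left of those labelled young (Y). Plod3 held 59.8% on average in libraries labelled aged and 41.4% in libraries labelled young, and P3h3 held 55.8% of the P3h sum in libraries labelled aged and 44.2% in libraries labelled young.

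P3h1 (chromosome 4, 119232915 to 119248975), the catalytic member of the 3-hydroxylation complex, had 9.81, 11.01 and 9.49 FPKM in the libraries labelled aged, against 17.5, 18.2 and 18.8 FPKM in those labelled young. The groups did not overlap, and P3h1 was 1.80-fold lower, with means of 10.1 ± 0.801 FPKM in libraries labelled aged and 18.2 ± 0.649 FPKM in libraries labelled young (SD, n = 3 each). This is a log2 difference of -0.79 ± 0.06 (SE), with an adjusted p of 5.58e-05 in limma.

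Crtap (chromosome 9, 114375134 to 114390675) had 54.2, 55.0 and 52.2 FPKM in the libraries labelled aged, against 61.5, 68.3 and 66.0 FPKM in those labelled young. It was 1.21-fold lower, the smallest fall among the 6 genes called. Its log2 difference was -0.27 ± 0.05 (SE), with an adjusted p of 0.00205 in limma. Crtap relative to P3h1 was 5.34 ± 0.2999 in libraries labelled aged and 3.59 ± 0.147 in libraries labelled young (SD, n = 3 each), without overlap (exact permutation p of 0.1, 0.117 adjusted). Crtap overlaps the transcript 4930520O04Rik on the opposite strand over 2096 bases, which was at 2.45 to 3.12 FPKM in the libraries labelled aged and 2.06 to 2.72 FPKM in those labelled young.

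P3h3 (chromosome 6, 124841089 to 124857752), known in mice for a complex that acts on collagen lysine hydroxylation, had 12.6, 13.7 and 12.3 FPKM in the libraries labelled aged, against 13.8, 16.0 and 13.9 FPKM in those labelled young. The groups stood just apart, with means of 12.9 ± 0.717 FPKM in libraries labelled aged and 14.5 ± 1.23 FPKM in libraries labelled young (SD, n = 3 each). On the log2 scale the difference was -0.16, with a 95% confidence interval of -0.32 to -0.00, and its adjusted p of 0.0739 in limma missed the threshold. Leaving out both young libraries with kidney transcripts gave -0.29 and an adjusted p of 0.0357, with 1 young library left that is assumed to vary like the others. P3h3 was the more abundant of the pair with P3h1 in every library labelled aged and P3h1 in every library labelled young: their ratio, P3h3 over P3h1, was 1.27 ± 0.0291 in libraries labelled aged and 0.801 ± 0.0720 in libraries labelled young (exact permutation p of 0.1, 0.117 adjusted).

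P3h2 (chromosome 16, 25959288 to 26105784), a prolyl 3-hydroxylase known for basement membrane collagen, had 0.109, 0.0634 and 0.109 FPKM in the libraries labelled aged and 0.218, 0 and 0.171 FPKM in those labelled young. It rests on 18 recovered reads in libraries labelled aged and 25 in libraries labelled young. Their ratio was 0.727, with an exact 95% interval of 0.374 to 1.39 for counting error. A count of 3 reads corresponds to 0.0464 to 0.0475 FPKM, and no difference was detectable at this depth.

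**Figure D3:**
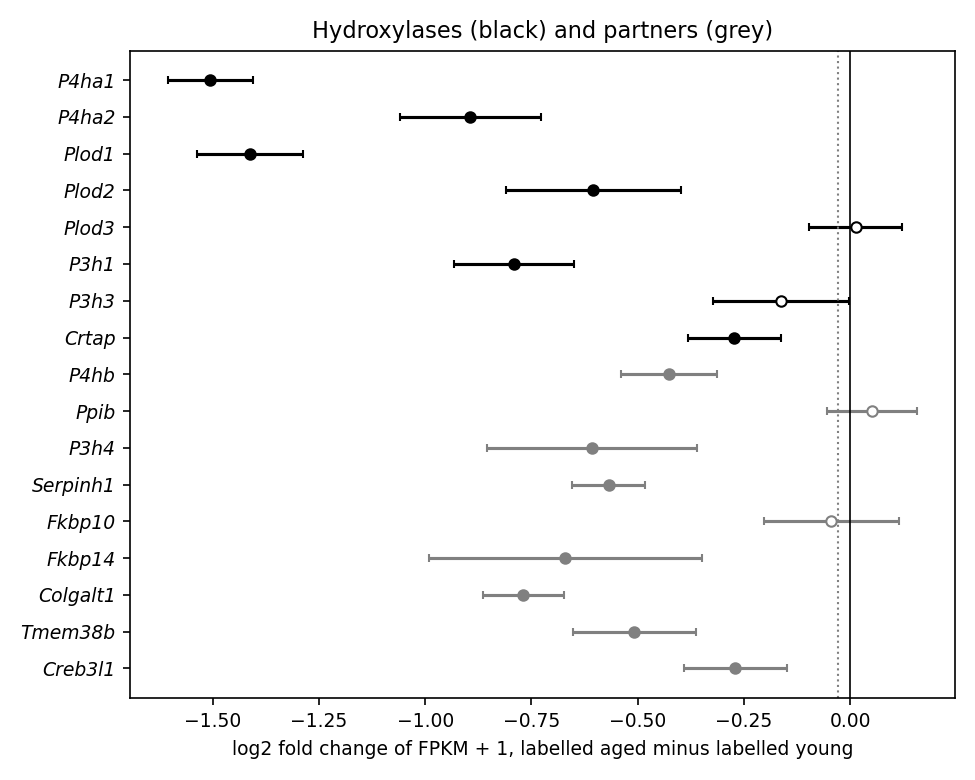
Log2 difference with its 95% confidence interval, labelled aged minus labelled young, on log2(FPKM + 1). The 8 genes tested are black, and their tested partners, described below, are grey. Filled circles are past the threshold, open circles are not, and the grey dotted line is at the median of all tested genes. P4ha1 at -1.51 and Plod1 at -1.41 lay lowest, and Plod3 at 0.01 lay nearest to 0.

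By level, which FPKM compares between genes per length, Crtap was highest in the libraries labelled aged, then Plod3, P4ha1, Plod2, Plod1, P3h3, P3h1, P4ha2, P4ha3 and P3h2. Plod1 and P3h3 were the neighbours whose values overlapped there. In the libraries labelled young the order was P4ha1, Crtap, Plod3, Plod1, Plod2, P3h1, P3h3, P4ha2, P3h2 and P4ha3, and the last 2 overlapped. P4ha1 was thus the third of the 10 genes in the libraries labelled aged and the first in those labelled young.

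All 6 falls kept their direction when both young libraries with kidney transcripts were left out, a fit with 1 young library left. The log2 differences were then -1.49 for P4ha1, -1.47 for Plod1, -0.95 for P4ha2, -0.79 for P3h1, -0.67 for Plod2 and -0.34 for Crtap.

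Of 10 proteins that work with the hydroxylases, 9 were tested, 7 fell, 0 rose and 2 were not past the threshold, with a median log2 difference of -0.51. P4hb, the beta subunit of prolyl 4-hydroxylase, averaged 458 ± 7.08 FPKM in libraries labelled aged and 617 ± 31.3 FPKM in libraries labelled young (log2 difference -0.43, adjusted p of 0.00032 in limma). Serpinh1, the collagen chaperone, averaged 330.5 ± 3.82 FPKM in libraries labelled aged and 491 ± 12.9 FPKM in libraries labelled young (-0.57, 3.00e-05). Colgalt1, which adds galactose to hydroxylysine, averaged 25.0 ± 0.493 FPKM in libraries labelled aged and 43.3 ± 1.85 FPKM in libraries labelled young (-0.77, 1.40e-05).

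The lower partners also included P3h4, a partner of P3h3 in mice, at 4.66 ± 0.0893 FPKM in libraries labelled aged and 7.69 ± 1.25 FPKM in libraries labelled young (log2 difference -0.61, adjusted p of 0.0022 in limma). Fkbp14, a prolyl isomerase of the endoplasmic reticulum, Tmem38b, an ion channel of that compartment, and Creb3l1, a transcription factor of secretory cells, fell by 0.67, 0.51 and 0.27 on the log2 scale. Ppib, the third member of the P3h1 complex, averaged 32.1 ± 1.82 FPKM in libraries labelled aged and 30.9 ± 0.208 FPKM in libraries labelled young, with a 95% interval of the log2 difference of -0.05 to 0.16 and an adjusted p of 0.357 in limma. Fkbp10, an isomerase known to bear on Plod2 activity, averaged 9.59 ± 0.233 FPKM in libraries labelled aged and 9.95 ± 0.961 FPKM in libraries labelled young, with an interval of -0.20 to 0.11 and an adjusted p of 0.592. Colgalt2 was not tested, at 0.0822 FPKM or less.

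The hydroxylases were also set against their partners within each library. The summed P4ha genes relative to P4hb were 0.0891 ± 0.00237 in libraries labelled aged and 0.184 ± 0.00781 in libraries labelled young, 2.07-fold lower (SD, n = 3 each). Plod1 relative to P3h4 was 3.08 ± 0.142 in libraries labelled aged and 5.28 ± 0.952 in libraries labelled young, and Plod2 relative to Fkbp10 was 1.90 ± 0.04996 in libraries labelled aged and 2.87 ± 0.505 in libraries labelled young. In the other direction, Plod3 relative to Colgalt1 was 1.94 ± 0.0667 in libraries labelled aged and 1.11 ± 0.0574 in libraries labelled young, and Ppib relative to P3h1 was 3.19 ± 0.255 in libraries labelled aged and 1.70 ± 0.0607 in libraries labelled young. None of these 5 ratios overlapped between groups, and each of the 4 ratios of single genes had an exact permutation p of 0.1 (0.117 adjusted), the smallest possible.

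Both chains of type I collagen, the main fibrillar substrate, fell in the libraries labelled aged, with adjusted p-values in limma of 0.000584 for Col1a1 and 2.6e-05 for Col1a2. Col1a1 and Col1a2 together averaged 384 ± 25.0 FPKM in libraries labelled aged and 581 ± 11.9 FPKM in libraries labelled young (SD, n = 3 each). Relative to that sum, the P4ha genes were 0.107 ± 0.00236 in libraries labelled aged and 0.195 ± 0.00776 in libraries labelled young, 1.83-fold lower and without overlap. The Plod genes relative to type I collagen were 0.212 ± 0.0199 in libraries labelled aged and 0.200 ± 0.0110 in libraries labelled young, and the P3h genes were 0.0604 ± 0.00706 in libraries labelled aged and 0.0565 ± 0.00129 in libraries labelled young. Both of these ratios overlapped between groups.

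**Figure D4:**
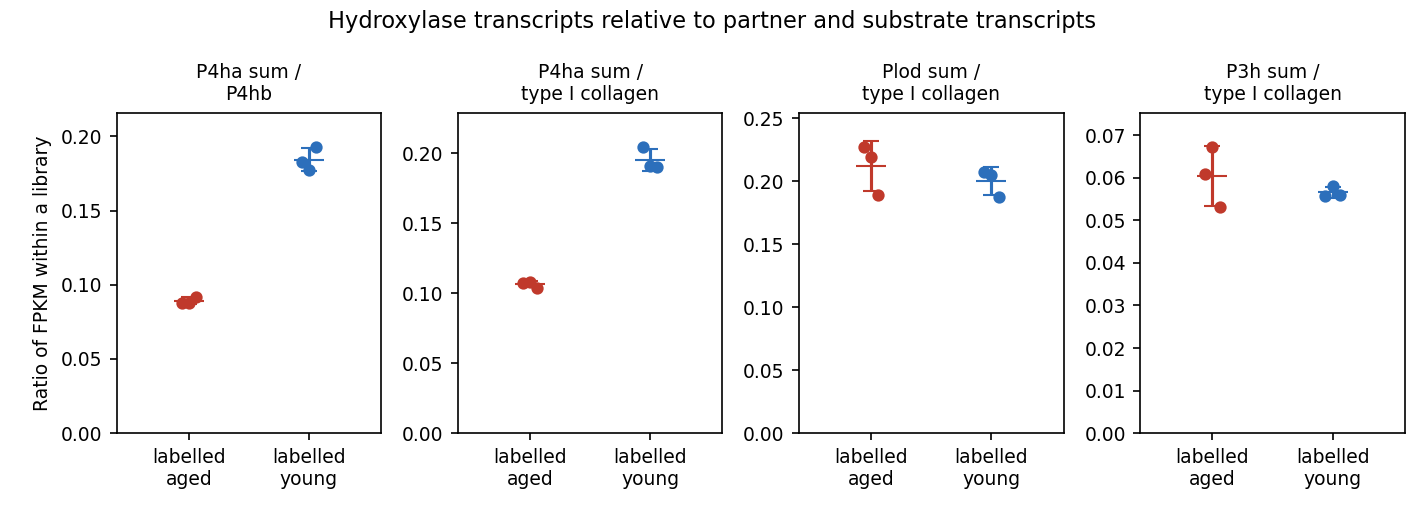
Ratios of FPKM within each library, one panel per ratio, with points for libraries, and means with SD bars, libraries labelled aged left of those labelled young. The summed P4ha genes over type I collagen averaged 0.107 in libraries labelled aged and 0.195 in libraries labelled young.

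Of 26 collagen chain genes, 19 were tested, 10 fell, 6 rose and 3 were not past the threshold (median log2 difference -0.19). Col3a1, a fibrillar chain, averaged 19.2 ± 0.459 FPKM in libraries labelled aged and 62.3 ± 1.92 FPKM in libraries labelled young (-1.64). Col5a3 and Col16a1 fell by 1.54 and 0.97 on the log2 scale. Col4a2, a basement membrane chain, rose, at 124 ± 0.697 FPKM in libraries labelled aged and 81.5 ± 0.460 FPKM in libraries labelled young (0.60).

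Of 12 genes for crosslinking and removal of propeptides, 9 were tested, 5 fell, 3 rose and 1 was not past the threshold (median -0.43). Hydroxylysine made by the Plod enzymes enters crosslinks that lysyl oxidases start. Loxl1 averaged 67.5 ± 1.56 FPKM in libraries labelled aged and 130 ± 1.85 FPKM in libraries labelled young, and Loxl2 averaged 19.1 ± 0.748 FPKM in libraries labelled aged and 29.4 ± 1.70 FPKM in libraries labelled young. Loxl3 averaged 29.1 ± 2.11 FPKM in libraries labelled aged and 13.2 ± 0.400 FPKM in libraries labelled young, and Loxl4 averaged 32.8 ± 1.10 FPKM in libraries labelled aged and 14.7 ± 0.813 FPKM in libraries labelled young. The log2 differences were -0.93 for Loxl1, -0.60 for Loxl2, 1.09 for Loxl3 and 1.11 for Loxl4, with adjusted p-values in limma of at most 0.000104. Lox itself was not tested, at 0.0967 FPKM or less.

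Among the procollagen proteases and their enhancers, Adamts14, Pcolce and Adamts2 fell by 1.33, 0.85 and 0.43 on the log2 scale. Pcolce2 rose by 0.86 on that scale. Bmp1, the main C-propeptide protease, averaged 11.9 ± 0.0803 FPKM in libraries labelled aged and 10.99 ± 0.363 FPKM in libraries labelled young, with an adjusted p of 0.0537 in limma. Bmp1 was called higher in 5 alternatives (median centring, quantile normalization, rescaling to TPM and both voom fits), with log2 differences of 0.11 to 0.17 and adjusted p-values of 0.0074 to 0.0404. Tll1 and Adamts3 were not tested.

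The oxygen-sensing hydroxylases of the same 2-oxoglutarate family were split. Of 5, 4 were tested: Egln1 and Egln3 fell, Egln2 rose and Hif1an was not past the threshold. Egln3 had a mean of 20.9 ± 0.754 FPKM in libraries labelled aged and 35.8 ± 4.35 FPKM in libraries labelled young (-0.74), and Egln2 had 20.1 ± 0.847 FPKM in libraries labelled aged and 17.0 ± 0.518 FPKM in libraries labelled young (0.23). P4ha1, P4ha2, Plod1 and Plod2 are known targets of hypoxia-inducible factor in other settings. Whether that factor had a part in their falls here was not tested. Of 22 hypoxia targets outside the 10 genes, 21 were tested, 18 fell, 0 rose and 3 were not past the threshold. Their median log2 difference was -0.94, and Egln3 is on both lists. Among all tested genes, 32.3% were called lower. Without aged replicate 3, or without young replicate 1, 1 hypoxia target was called higher. Rescaling to TPM and voom with median-of-ratios sizes also called 1 higher, and median centring, quantile normalization and voom with library totals called 2 higher. Pdk1, a kinase that restrains pyruvate oxidation, averaged 3.35 ± 0.0393 FPKM in libraries labelled aged and 15.9 ± 1.54 FPKM in libraries labelled young, 4.75-fold lower. Car9, a carbonic anhydrase, averaged 7.14 ± 0.709 FPKM in libraries labelled aged and 110 ± 16.4 FPKM in libraries labelled young.

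**Figure D5:**
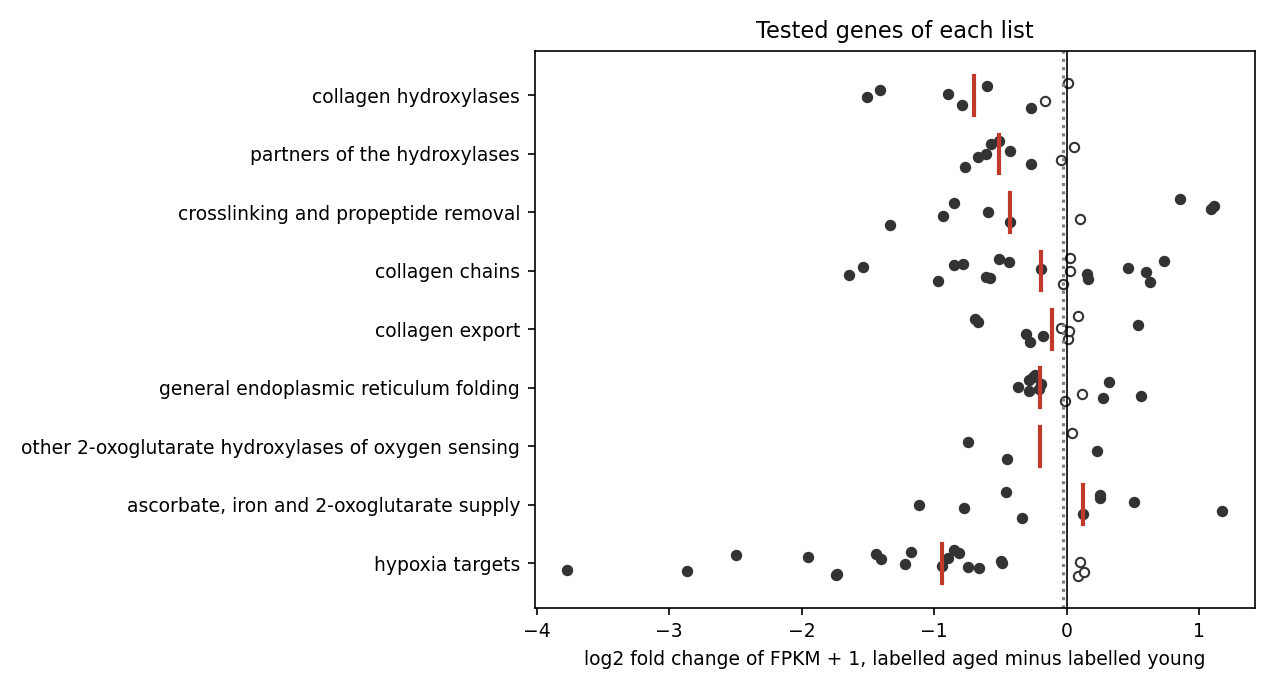
Log2 difference (labelled aged minus labelled young) of every tested gene in each list, with filled circles past the threshold, open circles not, and the grey dotted line at the median of all tested genes. The hypoxia targets had a median of -0.94 and the supply genes for ascorbate, iron and 2-oxoglutarate a median of 0.12.

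The lists for other steps around hydroxylation held both falls and rises. Of 12 folding genes of the endoplasmic reticulum, all tested, 7 fell, 3 rose and 2 were not past the threshold (median -0.20). The fall of Sdf2l1, whose groups overlapped, was not called without the filter, under median centring or with the replicate block. Leaving out aged replicate 2 or 3, or young replicate 2 or 3, also removed that call. Hsp90b1 was not called lower under quantile normalization, at -0.01 (adjusted p of 0.862 in limma). Hspa5, the main chaperone, averaged 343 ± 5.71 FPKM in libraries labelled aged and 443 ± 9.59 FPKM in libraries labelled young, a fall not called under quantile normalization (adjusted p of 0.118 in limma). Canx, a lectin chaperone, rose and averaged 298 ± 1.17 FPKM in libraries labelled aged and 247 ± 6.17 FPKM in libraries labelled young. Of 10 collagen export genes, 5 fell, 1 rose and 4 were not past the threshold (median -0.11). Sec31a, not past it, was called higher under median centring, rescaling to TPM, both voom fits and without young replicate 1. The fall of Mia2 was not called without the filter, under median centring, quantile normalization, rescaling to TPM or the replicate block. It was also not called without any single aged replicate or without young replicate 1. In the fit without both young libraries with kidney transcripts, the log2 difference of Mia2 was -0.11. Sec24d, a coat subunit of export vesicles, averaged 14.2 ± 0.671 FPKM in libraries labelled aged and 23.4 ± 0.641 FPKM in libraries labelled young. Of 10 genes for the supply of ascorbate, iron and 2-oxoglutarate, 9 were tested, 4 fell and 5 rose (median 0.12). The rise of Glud1 was not called without the filter, under quantile normalization, without the trend or with the replicate block. Leaving out aged replicate 2, aged replicate 3 or young replicate 2 also removed that call. Idh2, which makes 2-oxoglutarate in mitochondria, averaged 50.9 ± 1.21 FPKM in libraries labelled aged and 111.5 ± 4.73 FPKM in libraries labelled young, and Gsto1, a dehydroascorbate reductase, averaged 148 ± 10.5 FPKM in libraries labelled aged and 65.0 ± 1.28 FPKM in libraries labelled young.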

How the data were processed

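RNA was extracted with TRIzol from tissue labelled lung and sequenced on a NovaSeq instrument, per the labels' protocols. Reads were aligned with HISAT2 2.0.5 to mm10, per the submitters' processing notes. The counting program, annotation, RNA selection and use of strand were not given in the sources used here. The authors deposited 54532 rows of FPKM, 1 per gene, alongside each gene's position and length. FPKM multiplied by length was a whole multiple of a single step in each library, within a tolerance of 0.05, so whole reads were recovered. Library totals were 16649061 to 17456715 reads. For a gene of 1 kilobase, 3 reads amount to 0.173 to 0.177 FPKM, and intervals on reads cover counting error only.

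Genes with at least 0.5 FPKM in at least 3 libraries were tested (15197) on log2(FPKM + 1), which understates the change of low genes, with limma 3.58.1 in R 4.3.3: a model with group as its term, trended empirical Bayes moderation, 2-sided p-values, Benjamini-Hochberg adjustment over all tested genes and a threshold of 0.05. Folds are ratios of mean FPKM. Ratios within a library were tested by exact permutation in scipy 1.17.1. Of 15 planned ratios, 14 were computed, since P3h2 was at 0 in 1 library. The fitting script was tested on simulated data. No pair of replicates agreed within sampling noise, with chi-square per degree of freedom of 2.25 to 4.93 within groups. Same-numbered libraries did not deviate together.

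The genes, the lists and the rules were chosen with earlier results of these data known. Named genes were the 10 hydroxylase genes, all partner and crosslinking genes, and up to 4 genes with the smallest p from each other list. Marker genes, genes overlapping the hydroxylase genes, and Col1a1 and Col1a2, which entered the ratios, were named as well. Further genes were named after their values were seen, because their call changed with the processing or their libraries were compared. Promoters came from RefSeq on GRCm38.p6. The alternatives were other pseudocounts, filters and scalings, limma without the trend, the replicate number as a block and leaving out each library. Further ones were chosen after seeing the data: a fit without the 2 young libraries that held kidney transcripts, and limma's voom on recovered reads.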

Additional observations from a re-analysis of the deposited data

How the results depend on the processing

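The 6 falls of P4ha1, P4ha2, Plod1, Plod2, P3h1 and Crtap kept their direction and stayed past the threshold under all 18 alternatives run. The log2 difference ranged from -1.55 to -1.44 for P4ha1, from -1.47 to -1.35 for Plod1, from -1.02 to -0.83 for P4ha2, from -0.85 to -0.72 for P3h1, from -0.71 to -0.53 for Plod2 and from -0.34 to -0.21 for Crtap, whose highest adjusted p was 0.00929. Plod3 stayed between -0.03 and 0.08 and was not called. P3h3 ranged from -0.29 to -0.10 and was called lower in 3 alternatives: voom with median-of-ratios sizes (adjusted p of 0.0249), the fit without both libraries with kidney transcripts (0.0357) and the replicate block (0.0271); the cause was not tested. With the replicate number as a block, 4514 genes were called lower and 3927 higher, against 4903 and 4212 without it. Same-numbered libraries correlated at only 0.00562, -0.00793 and 0.0192. These correlations show no shared deviation, but they cannot exclude a pairing. Without each library in turn, 4257 to 4668 genes were called lower and 3426 to 3891 higher. Calr, not called at a log2 difference of -0.01, was called higher under quantile normalization, at 0.17 (adjusted p of 0.00613); the cause was not tested. The quasi-likelihood count tests planned on recovered reads were not run. P4ha3 and P3h2, at 16 to 32 reads per group, are limited by depth.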

Other observations

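Replicate 3 was the lowest of the 3 libraries labelled young for Plod2, at 24.3 FPKM against 31.2 and 29.5 FPKM in the other two. The same library was lowest among those labelled young for Egln1, at 27.7 FPKM against 34.8 and 36.6 FPKM, and for Egln3, at 30.8 FPKM against 37.7 and 38.9 FPKM. Car9 was at 92.4 FPKM there, against 114 and 125 FPKM in young replicates 1 and 2. Plod1 was also lowest there, at 38.2 FPKM against 39.6 and 41.5 FPKM, and so was P4ha2, at 9.04 FPKM against 10.3 and 10.3 FPKM. All hypoxia targets but Ddit4 and Bhlhe40 were lowest there as well. P4ha1 did not follow this order, at 103 FPKM in young replicate 3, against 106 and 102 FPKM in young replicates 1 and 2. Plod3, P3h1, P3h3, Crtap, P4ha3 and P3h2 were not lowest there either. Young replicate 3 also held kidney transcripts, with Kap at 21.9 FPKM. The share of all tested genes that were lowest in this library among those labelled young was not counted. These genes were set side by side after their values were seen, and the cause of the order was not tested.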
